A study of Mus musculus with 12 samples.

Results

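The genes described here encode actin and the proteins that bind, build, cut, cap, bundle or anchor its filaments, 50 genes named by symbol. Of these, 49 were found by symbol among the 14323 gene symbols of the count table, and Diaph1 was not analysed here. The filter on low counts kept 47 of the 49 in each comparison. The crosslinker Swap70 was below it, with at most 16 counts in a library, and so was the adhesion adaptor Vcl, with at most 11.

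RNA was measured in naïve CD8+ T cells, gated as TCRβ+CD8+CD62L+CD44- and sorted from the spleens of 3 adult wild type mice on the C57BL/6N background before 6 h of culture, at 100000 cells per well, in wells coated with antibody. The antibodies were 2.5 µg/ml anti-CD3, which triggers the T cell receptor complex, or isotype control in its place, together with the antibody 2C7 against LAIR-1, an agonist of this inhibitory collagen receptor (2.5 µg/ml), or isotype control in its place. Each mouse gave 1 library in each of the 4 conditions, so that each condition had 3 libraries. The conditions are called unstimulated isotype and unstimulated anti-LAIR-1 where isotype stood in for anti-CD3, and anti-CD3 isotype and, with both active antibodies, anti-CD3 anti-LAIR-1. All 12 libraries are of cultured cells, and no uncultured cells were sequenced.

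Actin cycles between single molecules and filaments. Thymosins hold the single molecules in reserve and profilin feeds them to growing ends, the Arp2/3 complex starts branches where WASP and WAVE proteins activate it, formins and Ena/VASP proteins extend straight filaments, capping protein stops growth, and cofilins and gelsolin take filaments apart. Crosslinkers, tropomyosins and myosin II shape and contract the resulting networks, and ERM proteins, talin and its partners tie them to the membrane and to integrins. In T cells the receptor sets off actin growth at the contact with the antigen-presenting cell, where the filament network carries receptor clusters inwards, and naïve cells keep a stiff ERM-anchored cortex while they circulate.

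Between 1781218 and 7725545 counts were recorded per library, with medians of 2304214, 3548881, 4883760 and 6204054 in the order of conditions above, and the listed genes took 2.81% to 3.33% of them. The CD8 T cell markers found (7 of 8) summed to 3516 to 3968 CPM in unstimulated isotype to 1886 to 2039 CPM in anti-CD3 isotype and to 2354 to 2705 CPM in anti-CD3 anti-LAIR-1 libraries. Naïve T cell markers (6 of 6) went from 4663 to 5000 CPM in the unstimulated isotype libraries to 417 to 512 CPM with anti-CD3, and stood at 645 to 807 CPM with anti-CD3 and anti-LAIR-1. The 8 genes fixed as markers of CD3 stimulation, among them Cd69 and Il2ra, summed to 288 to 333 CPM in unstimulated isotype, 3932 to 4275 CPM in anti-CD3 isotype and 3510 to 4021 CPM in anti-CD3 anti-LAIR-1 libraries. Of other cell types, B cell markers (7 of 8) reached at most 21.9 CPM in any library and stromal and endothelial markers (5 of 7) 2.65 CPM, with Cd79a, Ms4a1 and H2-Aa at 0 in some libraries. The myeloid markers found (7 of 8) summed to 55.4 to 71.2 CPM without and 29.3 to 45.4 CPM with anti-CD3, mostly Cst3, with Csf1r, Itgam, Cd14, Fcer1g and Tyrobp at 0 in some libraries, and their part in the results was not tested. Mitochondrial genes took 17.6% to 20.9% of the counts without and 11.5% to 13.2% with anti-CD3.

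Levels are given as CPM, counts scaled to the size of the library, normalized by TMM over the 12 libraries and listed in the order of mice 1, 2 and 3. They are not scaled by transcript length and are compared for 1 gene at a time. Differences are log2 fold changes ± their standard error from edgeR's quasi-likelihood fit with 3 mice per group, and adjusted p is its p-value adjusted by Benjamini-Hochberg across every gene tested, with 0.05 as the threshold. In a well, fewer cells of a kind and less RNA per cell cannot be told apart.

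SRF, with its actin-sensing coactivators Mkl1 and Mkl2, is the textbook regulator of actin genes, and it binds the CArG box. A CArG box stood between 250 bases before and 50 bases after the start of 5 of the 46 listed genes with a promoter in RefSeq (GRCm38.p6), or 10.9%, against 1.81% of 27025 genes with one and 1.41% of the 6963 genes tested here that have one. No promoter was found in RefSeq for Actb, Lsp1 and Pxn, so these genes were not searched for the motif. The search was for the CArG box by its letters on both strands, which a match fills together because the motif is a palindrome. The stretches are shown because they set these 5 genes side by side with the values below, with the motif in capitals, 5′ to 3′ on the gene's own strand.
Actg1 (chr11:120348531-120348630, minus strand): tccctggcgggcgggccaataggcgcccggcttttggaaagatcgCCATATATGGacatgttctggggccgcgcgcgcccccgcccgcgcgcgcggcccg
Cnn2 (chr10:79988499-79988598, plus strand): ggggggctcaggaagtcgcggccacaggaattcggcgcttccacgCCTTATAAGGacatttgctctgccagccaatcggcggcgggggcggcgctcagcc
Myl6 (chr10:128493005-128493104, minus strand): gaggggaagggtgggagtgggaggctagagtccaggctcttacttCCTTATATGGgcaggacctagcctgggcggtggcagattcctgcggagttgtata
Arpc4 (chr6:113377863-113377917, plus strand): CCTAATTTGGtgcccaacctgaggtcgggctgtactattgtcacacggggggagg
Vcl (chr14:20929148-20929225, plus strand): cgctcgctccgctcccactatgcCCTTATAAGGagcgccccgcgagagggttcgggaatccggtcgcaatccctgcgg
With anti-CD3 and isotype these genes did not share a direction. Actg1 and Arpc4 rose, Cnn2 fell, Myl6 did not pass the test and Vcl was too low to test. A match is a description of the letters and not a measured binding site.

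With anti-CD3 and isotype, both actins, profilin, 4 of 7 Arp2/3 subunits, the capping protein genes Capza2 and Capzb, cofilin, destrin and L-plastin rose, while both thymosins, coronin, filamin, Lsp1, calponin, ezrin, moesin, talin, leupaxin, zyxin, paxillin and vimentin fell. Each of these genes also passed with anti-CD3 and anti-LAIR-1, apart from zyxin and paxillin. Against unstimulated isotype, 17 of the 47 genes tested were higher and 23 were lower with anti-CD3 and isotype, and 7 did not pass the test. Of all 8441 protein-coding genes tested, 71.4% passed, so that a changed gene was the rule in this comparison, and the listed genes passed in 85.1%. Their median log2 fold change was -0.27, beside -0.01 for all genes. Under anti-LAIR-1, 19 were higher, 20 lower and 8 did not pass, where 72.8% of 8723 genes passed, and the median was 0.03, beside -0.02 for all genes. The split depended on the scaling. With upper quartile scaling, which lowered the median of all genes by 0.18 with isotype and 0.21 with anti-LAIR-1, 11 were higher and 28 lower with isotype, and 12 higher and 22 lower with anti-LAIR-1. With isotype it took the calls of the rises of Actr2, Arpc5, Dstn, Actn4, Tpm3 and Tpm4. It called Arpc2 (log2 -0.18, adjusted p = 0.049), Was (-0.36, 0.016), Vasp (-0.21, 0.038), Capg (-0.498, 0.040) and Myl6 (-0.29, 0.0039) lower with isotype and Wipf1 (-0.39, 4.8e-04) and Vasp (-0.28, 0.0037) lower with anti-LAIR-1, none of which passed with TMM. Both comparisons called 37 of the genes in the same direction, 17 higher and 20 lower, and none in opposite directions. With 71.4% and 72.8% of all genes passing, such a match was not shown to be particular to the listed genes. With isotype, 15 genes fell by more than 1 on the log2 scale, whereas 3 rose by more than 1 (Pfn1, Lcp1 and Myl12a). The shares of all genes beyond these limits are not given here, so this imbalance is a description of the listed genes only.

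**Figure D1:**
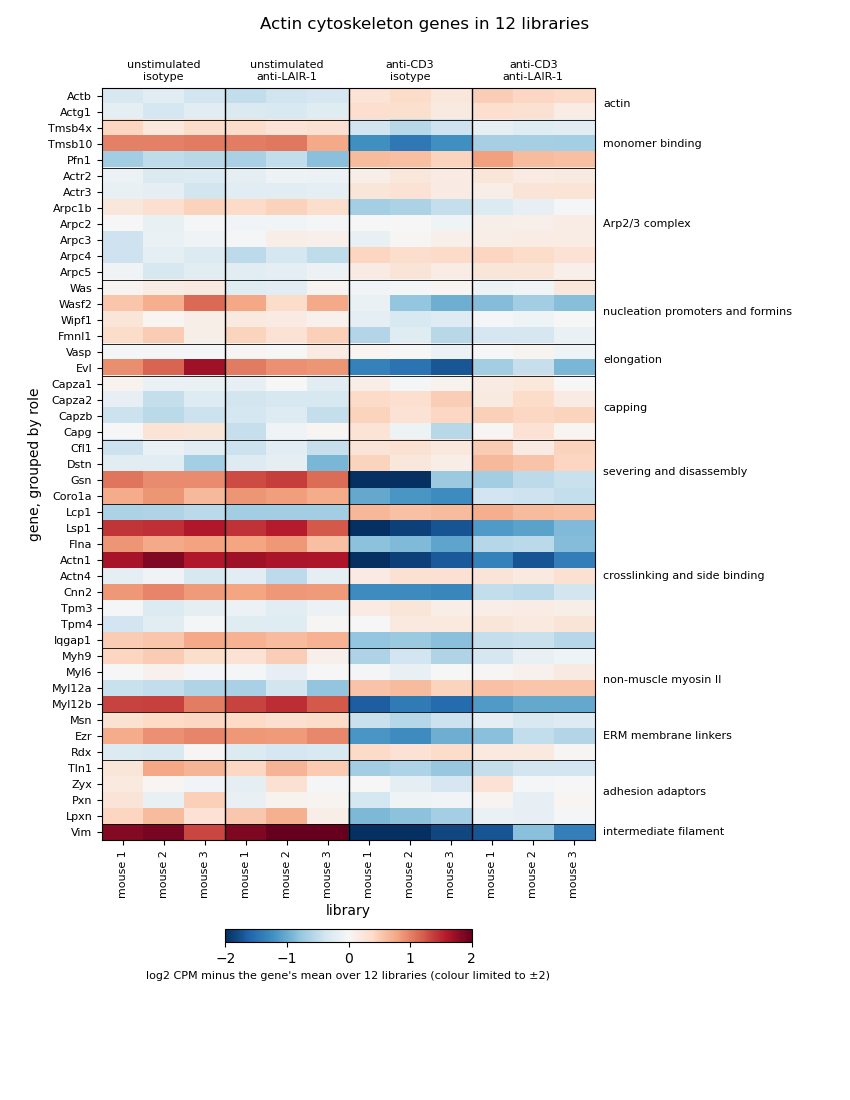
The heatmap shows the 47 genes tested in rows, grouped by role, and the 12 libraries in columns, grouped by condition with mice 1 to 3 in order. Colour is the gene's log2 CPM minus its mean over the 12 libraries, limited to ±2. The 6 libraries with anti-CD3 stand apart from the 6 without in most rows, and rows such as Cnn2 and Coro1a are paler with anti-LAIR-1 than with isotype among the stimulated libraries.

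**Figure D2:**
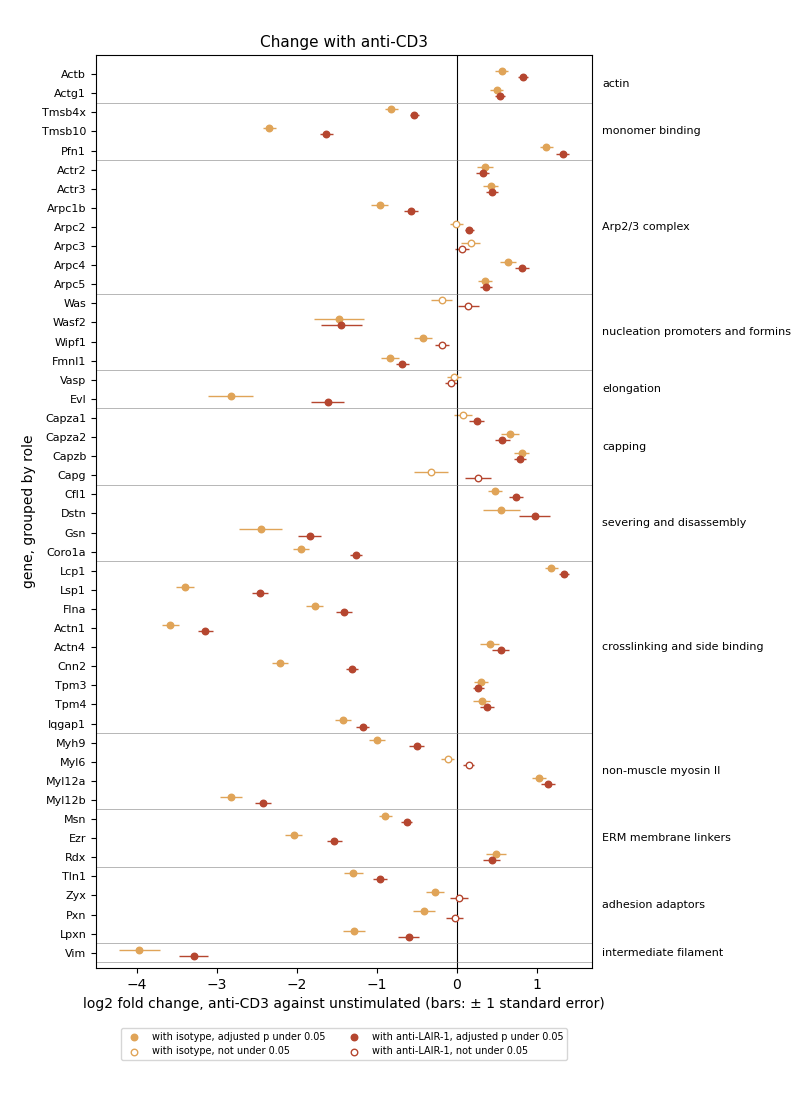
Log2 fold changes of the 47 genes with anti-CD3 against unstimulated are plotted with isotype (lighter points) and with anti-LAIR-1 (darker points), with bars of ± 1 standard error and filled points for an adjusted p under 0.05. Falls reach -3.97 for Vim with isotype and rises 1.34 for Lcp1 with anti-LAIR-1, so the falls are the longer side of the plot.

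Both cytoplasmic actins rose with anti-CD3. Actb (β-actin, chr5:142903115-142906754, minus strand) stood at 5138, 5448 and 4886 CPM in unstimulated isotype and at 4533, 4861 and 5092 CPM in unstimulated anti-LAIR-1 libraries. With anti-CD3 it reached 7755, 8205 and 7443 CPM with isotype and 8964, 8551 and 8375 CPM with anti-LAIR-1. The stimulated libraries lay above all unstimulated ones, with a log2 fold change of 0.56 ± 0.076 (adjusted p = 6.7e-07) with isotype and 0.83 ± 0.061 (adjusted p = 3.1e-10) with anti-LAIR-1. Actg1 (γ-actin, chr11:120345690-120348542, minus strand) gave 2867, 2575 and 2831 CPM (isotype) and 2710.4, 2661 and 2774 CPM (anti-LAIR-1) without stimulation. The stimulated levels were 4161, 4095 and 3737 CPM with isotype and 4174, 4052 and 3656 CPM with anti-LAIR-1, again without overlap between stimulated and unstimulated. Its change with isotype was close in size to that of Actb, at 0.50 ± 0.079 (adjusted p = 5.5e-06). With anti-LAIR-1 its change was smaller than that of Actb, at 0.54 ± 0.064 (adjusted p = 3.8e-07). Of the 60-base windows in the last 500 bases of Actg1 transcripts, 48.03% also occur in other genes, mostly processed pseudogenes, so that discarded multiple matches can lower its counts. Anti-LAIR-1 gave log2 differences of 0.14 (Actb) and -0.02 (Actg1) in stimulated cells, and neither passed the test.

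Among the proteins that bind single actin molecules, profilin rose and both thymosins fell. Pfn1, profilin, which delivers actin to growing ends, was at 1385, 1576 and 1527 CPM in unstimulated isotype and 1443, 1596 and 1265 CPM in unstimulated anti-LAIR-1 libraries. In stimulated libraries it was at 3500.2, 3431 and 3064 CPM (isotype) and 3954, 3493 and 3416 CPM (anti-LAIR-1). Every stimulated library was above every unstimulated one, a rise of 2.17-fold with isotype (log2 1.12 ± 0.083 (adjusted p = 2.4e-11)) and of 2.51-fold with anti-LAIR-1 (log2 1.33 ± 0.082 (adjusted p = 2.5e-11)). Tmsb4x, thymosin β4, which sequesters actin, gave 3743, 3201 and 3559.96 CPM without stimulation and isotype, and 3589.9, 3358 and 3408 CPM without stimulation and anti-LAIR-1. Stimulation with isotype left 2137, 1885 and 2080.4 CPM, and with anti-LAIR-1 2464, 2347 and 2405 CPM. These fell by less than those of the next gene, with log2 fold changes of -0.82 ± 0.083 (adjusted p = 5.4e-09) and -0.53 ± 0.060 (adjusted p = 1.9e-07). Tmsb10, thymosin β10, a close relative of Tmsb4x (chr6:72957347-72958748, minus strand), had 2722, 2744 and 2789 CPM in unstimulated isotype and 2773, 2818 and 2300.5 CPM in unstimulated anti-LAIR-1 libraries. It had 581, 507 and 581 CPM in anti-CD3 isotype libraries, 5.08-fold lower (log2 -2.34 ± 0.084 (adjusted p = 6.6e-17)), and 859, 857 and 848 CPM in anti-CD3 anti-LAIR-1 libraries (log2 -1.63 ± 0.076 (adjusted p = 4.4e-13)). The 4 conditions formed 3 levels, with the unstimulated libraries highest, anti-CD3 anti-LAIR-1 between and anti-CD3 isotype lowest, and no library of a level overlapped another level. Of its windows, 34.98% are shared with Gm9844 and Gm3788.

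Of the 7 Arp2/3 subunits, 4 rose with anti-CD3 and isotype (Actr2, Actr3, Arpc4 and Arpc5), 1 fell (Arpc1b), and Arpc2 and Arpc3 did not pass the test. With isotype the share of subunits that passed, 71.4%, equalled that of all genes, 71.4%. With anti-LAIR-1, Arpc2 also passed as higher, which made 85.7% of the subunits, beside 72.8% of all genes. Arpc4, a core subunit, had 163, 189 and 178 CPM in unstimulated isotype and 149.6, 169.99 and 152 CPM in unstimulated anti-LAIR-1 libraries. It had 289, 275 and 281 CPM (isotype) and 292, 278 and 265 CPM (anti-LAIR-1) with stimulation. The stimulated libraries did not overlap the unstimulated ones, and the log2 fold changes, 0.64 ± 0.096 (adjusted p = 2.6e-06) and 0.82 ± 0.083 (adjusted p = 4.0e-08), were the highest of the complex. Arpc1b, the form of the ARPC1 subunit typical of blood cells, went the other way. It was measured at 147, 158 and 172 CPM with isotype and 163, 173 and 159.99 CPM with anti-LAIR-1 in unstimulated cells. With anti-CD3 the values were 78.5, 80.6 and 90.3 CPM (isotype) and 104, 112 and 122 CPM (anti-LAIR-1), all below the unstimulated ones, with log2 fold changes of -0.96 ± 0.11 (adjusted p = 4.3e-08) and -0.57 ± 0.088 (adjusted p = 1.1e-05). The other form, Arpc1a, on the list of other actin regulators, passed as higher in both comparisons. Reads of Arpc1b overlap those of Pdap1 on the opposite strand, and the sources used here do not state whether counting used strand (35.1% of windows shared). The remaining subunits changed by -0.01 (Arpc2), 0.18 (Arpc3), 0.36 (Actr2), 0.36 (Arpc5) and 0.42 (Actr3) on the log2 scale with isotype. Of these, Actr3, Actr2 and Arpc5 passed. Processed pseudogenes share 40.8% of the windows of Actr3. With upper quartile scaling the adjusted p of Actr2 was 0.099 and of Arpc5 0.069, and with anti-LAIR-1 Arpc2 turned from 0.16 to -0.05.

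The activators of branching and the formin measured here were lower or did not pass. Wasf2 (WAVE2), which activates Arp2/3 downstream of Rac, was at 11.2, 12.6 and 16.7 CPM in unstimulated isotype and 13.00, 9.80 and 12.8 CPM in unstimulated anti-LAIR-1 libraries. After stimulation it was at 6.94, 4.44 and 3.85 CPM with isotype and 4.17, 4.72 and 4.23 CPM with anti-LAIR-1. Though low, these levels did not overlap between stimulated and unstimulated, and the log2 fold changes were -1.47 ± 0.31 (adjusted p = 1.8e-04) and -1.44 ± 0.25 (adjusted p = 4.1e-05). Fmnl1, a formin of blood cells that elongates straight filaments, gave 278, 308 and 234 CPM (isotype) and 294, 264 and 303 CPM (anti-LAIR-1) without stimulation. It gave 144, 182 and 148 CPM and 172, 171 and 198 CPM with stimulation, without overlap. The log2 fold change was -0.83 ± 0.11 (adjusted p = 7.0e-07) with isotype and -0.68 ± 0.085 (adjusted p = 6.9e-07) with anti-LAIR-1. Wipf1, which stabilises WASP, fell with isotype (-0.42 ± 0.11 (adjusted p = 0.0015)) and had a difference of -0.18 ± 0.087 (adjusted p = 0.063) with anti-LAIR-1. Was, WASP itself, did not pass in either comparison (-0.19 and 0.15).

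The Ena/VASP proteins, which protect growing ends from capping, diverged. Evl stood at 19.2, 22.4 and 32.3 CPM in unstimulated isotype and 20.5, 18.8 and 18.4 CPM in unstimulated anti-LAIR-1 libraries. It was left at 3.92, 3.60 and 3.05 CPM by anti-CD3 with isotype and at 6.19, 7.26 and 5.29 CPM with anti-LAIR-1. All stimulated values were below all unstimulated ones, with log2 fold changes of -2.83 ± 0.28 (adjusted p = 4.6e-09) and -1.62 ± 0.21 (adjusted p = 9.6e-07). Evl lies opposite Degs2, and 24.7% of its windows are shared. Vasp differed by -0.03 and -0.07 and did not pass, with library values between 349 and 422 CPM over all conditions.

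The capping protein subunits Capza2 and Capzb rose, while the other capping genes did not pass with isotype. The α2 subunit Capza2 gave 84.9, 68.4 and 79.6 CPM in unstimulated isotype and 74.1, 76.3 and 76.7 CPM in unstimulated anti-LAIR-1 libraries. Stimulated libraries gave 125, 121 and 134 CPM with isotype and 108, 124 and 107 CPM with anti-LAIR-1. The rise was 0.67 ± 0.12 (adjusted p = 1.9e-05) with isotype and 0.57 ± 0.096 (adjusted p = 2.8e-05) with anti-LAIR-1, without overlap. The β subunit Capzb had 200.5, 186 and 202 CPM (isotype) and 213, 227 and 194 CPM (anti-LAIR-1) before stimulation. Anti-CD3 brought it to 367, 330.3 and 361 CPM and 376, 359 and 368 CPM. Its log2 fold changes, 0.81 ± 0.093 (adjusted p = 4.5e-08) and 0.79 ± 0.079 (adjusted p = 3.0e-08), were close to each other in the antibody conditions. The α1 subunit Capza1 did not pass with isotype (0.07) and passed with anti-LAIR-1 (0.25 ± 0.098 (adjusted p = 0.029)). It lost that call without mouse 1 (adjusted p = 0.072) or mouse 3 (0.087) of the unstimulated and without mouse 1 (0.065) or mouse 2 (0.090) of the stimulated libraries, and 61.1% of its windows are shared with other genes. Capg, a gelsolin relative that caps without cutting, did not pass (-0.32 and 0.27).

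Proteins that take filaments apart split, with both cofilin-type genes higher and gelsolin and coronin lower. Cfl1, cofilin, which severs old filaments, was at 1320.3, 1616 and 1533 CPM in unstimulated isotype and 1325, 1517 and 1293 CPM in unstimulated anti-LAIR-1 libraries. It rose to 2134, 2191 and 2063 CPM with isotype and 2536, 1994 and 2416 CPM with anti-LAIR-1. The groups did not overlap, and the log2 fold changes were 0.48 ± 0.084 (adjusted p = 2.3e-05) and 0.74 ± 0.085 (adjusted p = 2.1e-07). Reads of Cfl1 can be shared with Snx32 on the opposite strand (24.7% of windows). Dstn, destrin, the cofilin relative that frees monomers, was low, with 12.6, 12.6 and 9.15 CPM and 12.2, 12.7 and 7.75 CPM without stimulation (isotype, then anti-LAIR-1). With stimulation it was at 19.9, 17.1 and 16.1 CPM (isotype) and 22.9, 21.6 and 19.7 CPM (anti-LAIR-1). Its rise passed the test with isotype (0.56 ± 0.23 (adjusted p = 0.035)) and with anti-LAIR-1 (0.97 ± 0.20 (adjusted p = 2.2e-04)). The call with isotype was lost without unstimulated mouse 2 (adjusted p = 0.051) or mouse 3 (0.12), without stimulated mouse 1 (0.088), and in DESeq2 (0.074).

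Gsn, gelsolin, which cuts and caps filaments when calcium rises, had 42.6, 39.1 and 39.3 CPM in unstimulated isotype and 50.1, 53.2 and 44.1 CPM in unstimulated anti-LAIR-1 libraries. In anti-CD3 isotype libraries it had 4.53, 4.44 and 12.2 CPM, where mouse 3 stood apart from the other mice, and in anti-CD3 anti-LAIR-1 libraries 12.5, 14.2 and 15.02 CPM. It fell in both comparisons, by log2 fold changes of -2.45 ± 0.27 (adjusted p = 2.3e-08) and -1.84 ± 0.15 (adjusted p = 9.9e-10), and the first was -3.17 without stimulated isotype mouse 3. Coro1a, coronin 1A (chr7:126699773-126707787, minus strand), which in T cells works against the Arp2/3 complex and whose loss leaves few naïve T cells, stood at 527, 583 and 497 CPM (isotype) and 583, 565 and 527 CPM (anti-LAIR-1) without stimulation. With anti-CD3 it was at 155, 141 and 132 CPM with isotype and 242, 236 and 227 CPM with anti-LAIR-1. The stimulated isotype libraries were lowest and the stimulated anti-LAIR-1 libraries lay between them and the unstimulated ones. Its fall was 3.87-fold with isotype (log2 -1.95 ± 0.098 (adjusted p = 2.1e-14)) and 2.39-fold with anti-LAIR-1 (log2 -1.26 ± 0.074 (adjusted p = 1.4e-11)).

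All 9 crosslinking and side-binding genes tested changed with anti-CD3 in both antibody conditions, 4 higher and 5 lower. Of all genes tested, 71.4% passed with isotype and 72.8% with anti-LAIR-1. These 9 genes held the widest range of any role, -3.58 to 1.18 with isotype. Lcp1, L-plastin, the filament bundler of white blood cells, was the strongest rise of all 47 genes in both comparisons. It had 699, 721 and 749.98 CPM in unstimulated isotype and 672, 673 and 673 CPM in unstimulated anti-LAIR-1 libraries. Stimulated libraries had 1723, 1640.02 and 1689.7 CPM (isotype) and 1794, 1693 and 1654 CPM (anti-LAIR-1). This was 2.27-fold higher with isotype (log2 1.18 ± 0.080 (adjusted p = 4.1e-12)) and 2.54-fold higher with anti-LAIR-1 (log2 1.34 ± 0.066 (adjusted p = 8.9e-13)). The α-actinins, which crosslink filaments into loose bundles, moved apart. Actn1 had 823, 939 and 791 CPM and 848, 813 and 806 CPM in unstimulated isotype and anti-LAIR-1 libraries. It fell to 63.7, 71.7 and 81.4 CPM with isotype and 102, 78.6 and 100.1 CPM with anti-LAIR-1, 11.98-fold and 8.83-fold lower (log2 -3.58 ± 0.11 (adjusted p = 3.4e-18) and -3.14 ± 0.094 (adjusted p = 1.5e-15)). Actn4 had 74.98, 81.5 and 68.3 CPM and 73.9, 59.3 and 74.8 CPM without and 95.4, 106 and 106 CPM and 102, 98.4 and 106 CPM with anti-CD3, each isotype first. It rose by 0.41 ± 0.12 (adjusted p = 0.0031) with isotype and 0.55 ± 0.10 (adjusted p = 1.1e-04) with anti-LAIR-1, and the first had an adjusted p of 0.072 with upper quartile scaling.

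Lsp1, a filament-binding phosphoprotein of white blood cells, was found at 356, 366 and 404 CPM in unstimulated isotype and 362, 395 and 309 CPM in unstimulated anti-LAIR-1 libraries (chr7:142460809-142494867, plus strand). Anti-CD3 left 31.7, 36.2 and 39.99 CPM with isotype and 60.2, 62.9 and 72.1 CPM with anti-LAIR-1. The fall was 10.6-fold with isotype (log2 -3.40 ± 0.11 (adjusted p = 1.9e-17)) and 5.51-fold with anti-LAIR-1 (log2 -2.46 ± 0.10 (adjusted p = 8.4e-14)), and the stimulated conditions did not overlap each other. Cnn2, calponin 2 (chr10:79988584-79996062, plus strand), which binds along filaments and stabilises them, had 431, 466 and 425 CPM (isotype) and 410.5, 432 and 427 CPM (anti-LAIR-1) in unstimulated cells. In stimulated cells it had 99.3, 97.6 and 96.2 CPM with isotype, a spread of a few CPM, and 169, 165 and 182 CPM with anti-LAIR-1. Its log2 fold changes were -2.21 ± 0.095 (adjusted p = 1.2e-15) and -1.31 ± 0.076 (adjusted p = 1.1e-11) in the same order. Flna, filamin A, which joins filaments at wide angles and links them to integrins, was measured at 275, 253 and 262 CPM and 258, 273 and 226 CPM without stimulation. With stimulation the values were 84.2, 81.05 and 72.1 CPM (isotype) and 101, 103 and 82.1 CPM (anti-LAIR-1). Its log2 fold changes were -1.78 ± 0.10 (adjusted p = 3.3e-13) and -1.41 ± 0.10 (adjusted p = 2.1e-10). Iqgap1, a scaffold for Cdc42, Rac1 and actin, gave 233, 240.3 and 276 CPM and 264, 255 and 264 CPM in unstimulated isotype and anti-LAIR-1 libraries. It gave 96.00, 97.8 and 92.03 CPM and 118, 119.6 and 110.02 CPM with anti-CD3, lower than every unstimulated library, with log2 fold changes of -1.42 ± 0.10 (adjusted p = 1.5e-11) and -1.18 ± 0.080 (adjusted p = 1.2e-10). The tropomyosins, which coat filaments, rose slightly, Tpm3 by 0.30 and Tpm4 by 0.31 with isotype. Neither passed with upper quartile scaling, where the adjusted p was 0.21 and 0.25, and that of Tpm4 was 0.081 without unstimulated isotype mouse 1. Of the windows of Tpm3, 30.9% are shared with other genes.

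**Figure D3:**
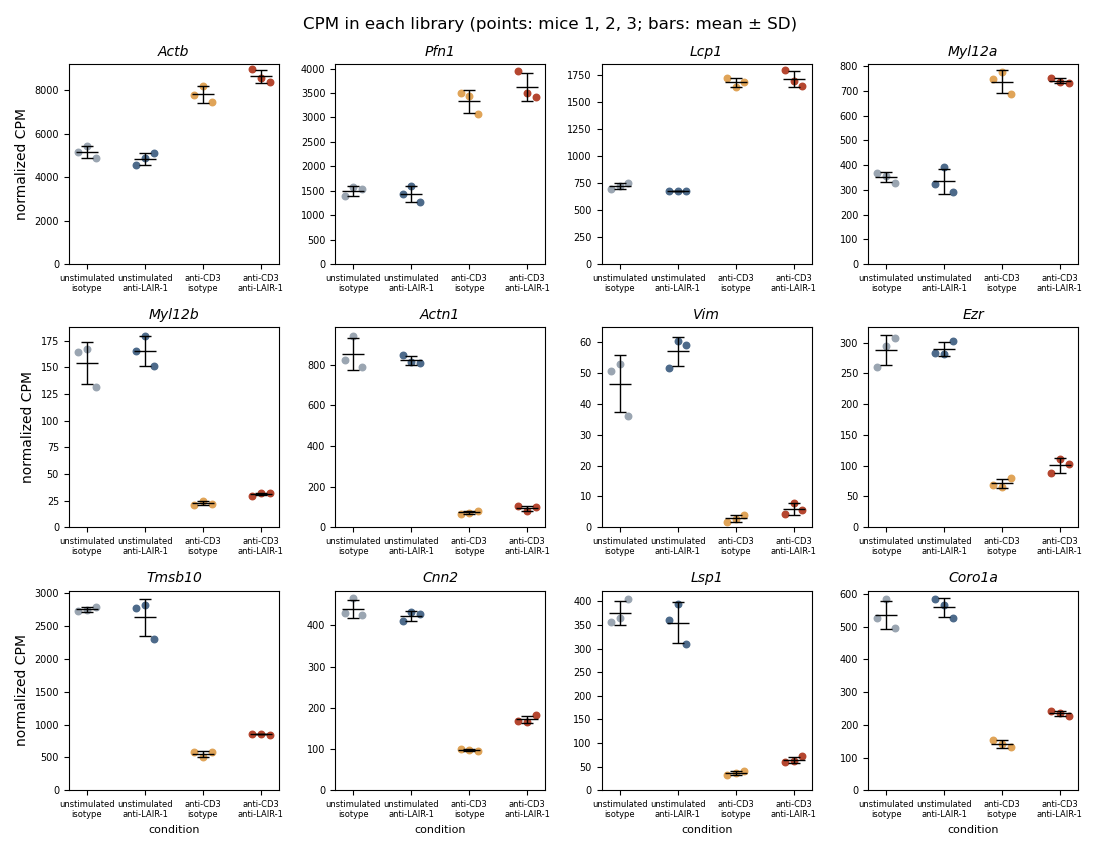
Normalized CPM in each library is plotted for 12 of the genes, with 1 point per mouse and bars for the mean ± SD of 3 mice in each condition. Actb, Pfn1, Lcp1 and Myl12a are higher in all 6 stimulated libraries, and the other 8 genes are lower. In Tmsb10, Cnn2, Lsp1 and Coro1a all 3 anti-CD3 anti-LAIR-1 libraries lie above the 3 anti-CD3 isotype libraries and below the unstimulated ones.

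Non-muscle myosin II contracts actin networks. Its heavy chain fell, and its regulatory light chains, encoded by the neighbouring and nearly identical genes Myl12a and Myl12b, moved in opposite directions. Myh9, the heavy chain, was at 405, 429.7 and 384 CPM in unstimulated isotype and 369, 424 and 324 CPM in unstimulated anti-LAIR-1 libraries. With anti-CD3 it was at 196, 232 and 198 CPM (isotype) and 238, 272 and 284 CPM (anti-LAIR-1), below all unstimulated values. The log2 fold changes were -0.997 ± 0.096 (adjusted p = 2.5e-09) and -0.50 ± 0.094 (adjusted p = 9.2e-05). Myl12a had 368, 357 and 329 CPM and 322, 390.3 and 291 CPM in unstimulated isotype and anti-LAIR-1 libraries. It had 748, 776 and 687 CPM and 752, 735 and 733 CPM in the stimulated ones, a rise of 1.03 ± 0.088 (adjusted p = 3.2e-10) and 1.14 ± 0.089 (adjusted p = 8.1e-10). Myl12b had 164, 167 and 131 CPM and 166, 179.5 and 151 CPM without stimulation. It had 20.5, 24.3 and 22.2 CPM with anti-CD3 and isotype and 29.6, 31.7 and 31.7 CPM with anti-CD3 and anti-LAIR-1, 7.06-fold and 5.37-fold lower (log2 -2.82 ± 0.13 (adjusted p = 7.8e-15) and -2.43 ± 0.10 (adjusted p = 1.2e-13)). No stimulated library of either light chain overlapped an unstimulated one. In the last 500 bases, 4.09% of the Myl12a and 2.93% of the Myl12b windows occur in other genes. Windows common to the ends of both genes were not counted in these shares, so they do not show how many reads fit both. Another annotated gene under the symbol Myl12b overlaps exons of both on the same strand. Myl6, the essential light chain, did not pass (-0.11 and 0.15), and 24.98% of its windows are shared.

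Of the ERM proteins, which tie the cortex to the membrane, ezrin and moesin fell and radixin rose. Ezr gave 260.3, 294 and 308 CPM in unstimulated isotype and 283, 281 and 302 CPM in unstimulated anti-LAIR-1 libraries. It gave 69.1, 64.97 and 79.5 CPM (isotype) and 87.7, 111 and 103 CPM (anti-LAIR-1) with stimulation. It fell 4.11-fold with isotype (log2 -2.04 ± 0.11 (adjusted p = 7.4e-14)) and 2.89-fold with anti-LAIR-1 (log2 -1.53 ± 0.092 (adjusted p = 1.6e-11)). Msn, moesin, the ERM protein best known in lymphocytes, had 585, 619 and 632 CPM and 624, 586 and 611 CPM without stimulation. With stimulation it had 348, 317 and 349 CPM and 411, 382 and 395 CPM, isotype first. All stimulated values were lower, with log2 fold changes of -0.89 ± 0.086 (adjusted p = 2.6e-09) and -0.62 ± 0.070 (adjusted p = 1.6e-07). Rdx, radixin, rose by 0.50 ± 0.12 (adjusted p = 9.9e-04) with isotype and 0.44 ± 0.10 (adjusted p = 9.1e-04) with anti-LAIR-1, the latter with an adjusted p of 0.057 under upper quartile scaling.

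The adhesion adaptors tested fell with anti-CD3 and isotype, all 4 of them, where 71.4% of all genes passed (35.7% lower). Tln1, talin, which opens integrins and links them to actin, was measured at 250.05, 361 and 338 CPM in unstimulated isotype and 281, 339 and 304 CPM in unstimulated anti-LAIR-1 libraries. After anti-CD3 it was measured at 131, 139 and 126 CPM with isotype and 151, 164 and 162 CPM with anti-LAIR-1. It fell without overlap, with log2 fold changes of -1.29 ± 0.12 (adjusted p = 7.9e-10) and -0.96 ± 0.084 (adjusted p = 4.8e-09). Lpxn, leupaxin, the paxillin relative of white blood cells, had 74.98, 85.9 and 67.8 CPM (isotype) and 80.5, 90.8 and 60.6 CPM (anti-LAIR-1) without stimulation. Stimulation with isotype left 29.6, 31.5 and 34.7 CPM and with anti-LAIR-1 50.4, 49.6 and 53.95 CPM. Its log2 fold change was -1.29 ± 0.14 (adjusted p = 1.6e-08) with isotype and -0.60 ± 0.13 (adjusted p = 3.5e-04) with anti-LAIR-1. Zyx, zyxin, and Pxn, paxillin, passed with isotype only, at -0.27 ± 0.11 (adjusted p = 0.029) and -0.40 ± 0.14 (adjusted p = 0.013), and their stimulated and unstimulated libraries overlapped. With anti-LAIR-1 they differed by 0.03 and -0.03, and whether the change of either differed between the antibody conditions did not pass its own test (adjusted p = 0.55 and 0.46). The call of Zyx was lost without unstimulated mouse 1 (adjusted p = 0.16), stimulated mouse 2 (0.096) or stimulated mouse 3 (0.24), and in DESeq2 (0.055). That of Pxn was lost without unstimulated mouse 3 (0.088) or stimulated mouse 1 (0.089).

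Vim, vimentin, the intermediate filament protein that stiffens circulating lymphocytes, had the deepest fall of the 47 genes in both comparisons. It had 50.9, 52.9 and 36.05 CPM in unstimulated isotype and 51.7, 60.4 and 59.3 CPM in unstimulated anti-LAIR-1 libraries. With anti-CD3 it had 1.81, 2.75 and 4.02 CPM (isotype) and 4.31, 7.93 and 5.501 CPM (anti-LAIR-1). The change was 15.7-fold with isotype (log2 -3.97 ± 0.26 (adjusted p = 2.1e-12)) and 9.79-fold with anti-LAIR-1 (log2 -3.29 ± 0.18 (adjusted p = 6.2e-12)). The 1.81 CPM of anti-CD3 isotype mouse 1 lay near the 0.906 CPM that a count of 0 allows in that library. Actn1 came next, at -3.58 ± 0.11 with isotype and -3.14 ± 0.094 with anti-LAIR-1, and the order of these genes was not tested.

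In stimulated cells, 9 of the 47 genes were higher with anti-LAIR-1 than with isotype and none was lower. They were both thymosins, Arpc1b, Coro1a, Lsp1, Cnn2, Myh9, Ezr and Lpxn. Of all 8539 protein-coding genes tested, 5.80% passed (3.92% higher, 1.87% lower), against 19.1% of the listed genes, and the median log2 difference was 0.14 for the listed genes, with 37 of 47 above 0, and 0.00 for all genes. All 9 genes were also lower with anti-CD3 and isotype, but both comparisons use the anti-CD3 isotype libraries, so that a high or low value there moves both. Each of these genes had its 3 anti-LAIR-1 libraries above its 3 isotype libraries. This separation was not particular to them, as genes that did not pass, such as Actb, Msn and Vim, also had it. The summed CD8 T cell and naïve T cell markers also stood higher with anti-LAIR-1 in stimulated cells, without overlap, and of the former the CD3 subunits Cd3g (0.54 ± 0.072 (adjusted p = 1.9e-04)), Cd3e (0.45 ± 0.067 (adjusted p = 5.4e-04)) and Cd3d (0.45 ± 0.084 (adjusted p = 0.0038)) passed. Of the 6 naïve markers 5 passed as higher, and Ccr7 did not pass. The part of these markers in the result was not tested.

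The log2 difference was 0.83 ± 0.12 (adjusted p = 2.8e-04) for Lsp1, 0.81 ± 0.080 (adjusted p = 1.4e-05) for Cnn2, 0.72 ± 0.080 (adjusted p = 3.5e-05) for Coro1a, 0.66 ± 0.11 (adjusted p = 0.0017) for Lpxn and 0.61 ± 0.068 (adjusted p = 3.5e-05) for Tmsb10. In folds, Lsp1 was 1.78-fold, Cnn2 1.75-fold, Coro1a 1.65-fold, Lpxn 1.58-fold and Tmsb10 1.53-fold higher. These 5 calls held with each of the 6 libraries left out in turn and in DESeq2. The other calls were smaller, 0.48 ± 0.11 (adjusted p = 0.010) for Ezr, 0.42 ± 0.092 (adjusted p = 0.010) for Arpc1b, 0.33 ± 0.087 (adjusted p = 0.032) for Myh9 and 0.23 ± 0.064 (adjusted p = 0.039) for Tmsb4x, and each was lost when some libraries were left out. In DESeq2 blocked by mouse, Myh9 (adjusted p = 0.064) and Tmsb4x (0.080) did not pass. Arpc1b lost it without isotype mouse 2 (adjusted p = 0.051), and Ezr without isotype mouse 2 (0.066) or anti-LAIR-1 mouse 2 (0.074). Myh9 lost it without isotype mouse 1 (0.12) or mouse 3 (0.13) and anti-LAIR-1 mouse 2 (0.12) or mouse 3 (0.12). Tmsb4x lost it without isotype mouse 2 (0.15) or mouse 3 (0.089) and anti-LAIR-1 mouse 1 (0.12), mouse 2 (0.10) or mouse 3 (0.083).

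Several of the genes with the deepest falls under anti-CD3 had positive differences with anti-LAIR-1 that did not pass the test, among them Vim (0.95 ± 0.35 (adjusted p = 0.13)), Evl (0.85 ± 0.29 (adjusted p = 0.10)), Gsn (0.87 ± 0.29 (adjusted p = 0.092)), Myl12b (0.46 ± 0.13 (adjusted p = 0.053)) and Actn1 (0.35 ± 0.11 (adjusted p = 0.077)). Gsn passed in the fit blocked by mouse (adjusted p = 0.029) and without isotype mouse 3 (0.0022, log2 1.60), and Actn1 without anti-LAIR-1 mouse 2 (0.029). Actn1 and Gsn also passed with no filter on low counts (0.014 and 0.0037) and with all 12 libraries in 1 fit (0.045 and 0.038), and Myl12b with all 12 libraries (0.033), with at least 10 counts in every library (0.048) and with upper quartile scaling (0.048). The genes that rose most with anti-CD3 showed differences near 0, with 95% intervals of -0.04 to 0.27 for Pfn1, -0.11 to 0.15 for Lcp1 and -0.14 to 0.14 for Myl12a. The genes of this paragraph were picked by their change with anti-CD3. That change and the anti-LAIR-1 difference both use the anti-CD3 isotype libraries, so that a high or low value there moves both.

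**Figure D4:**
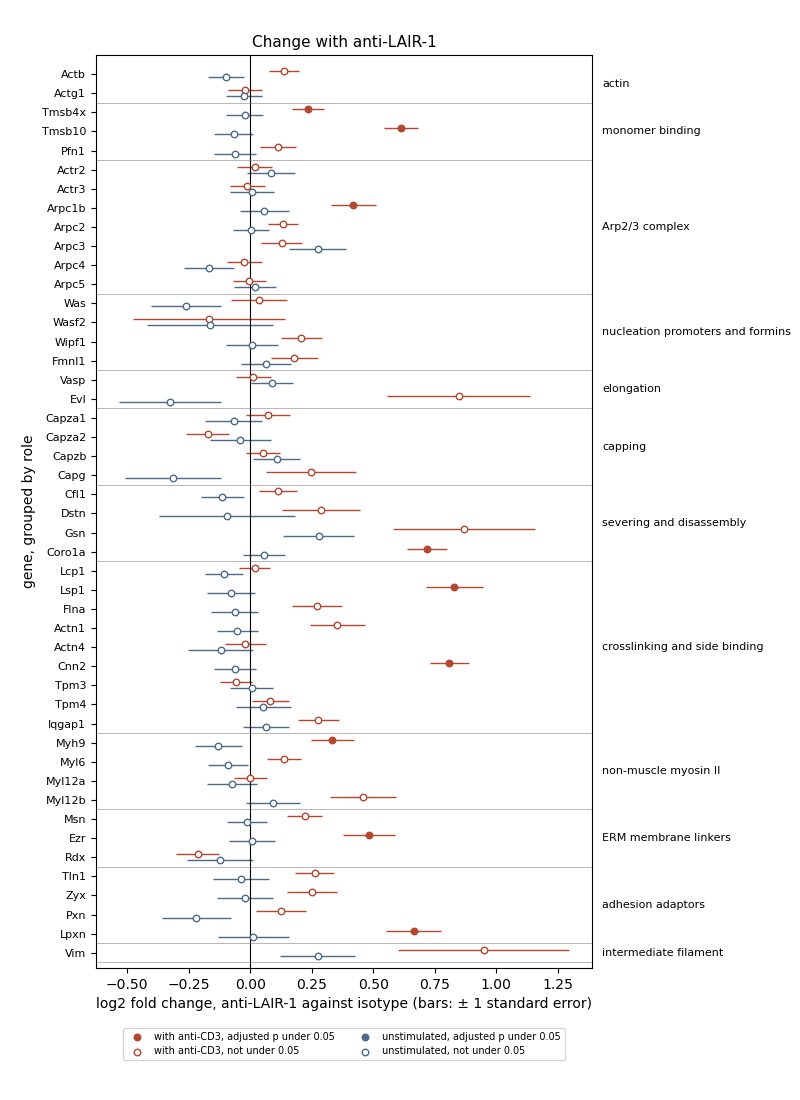
Log2 fold changes of the 47 genes with anti-LAIR-1 against isotype are plotted in stimulated cells (filled where adjusted p was under 0.05) and in unstimulated cells, with bars of ± 1 standard error. The 9 filled points all lie to the right of 0 and belong to stimulated cells, and the unstimulated points lie in the range -0.33 to 0.28.

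In unstimulated cells none of the 47 genes passed the edgeR test with anti-LAIR-1 and DESeq2 called none either, with 1 at an unadjusted p under 0.05. Of all 8500 genes 0% passed, and 4.29% had an unadjusted p under 0.05. The log2 differences ran from -0.33 to 0.28, and for the genes called in stimulated cells they were -0.08 (Lsp1), -0.06 (Cnn2), 0.06 (Coro1a), 0.01 (Lpxn) and -0.07 (Tmsb10). The 95% intervals, -0.28 to 0.12 for Lsp1, -0.23 to 0.11 for Cnn2, -0.12 to 0.24 for Coro1a and -0.23 to 0.10 for Tmsb10, bound what these 6 libraries leave possible.

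Whether the effect of anti-LAIR-1 differed with and without anti-CD3 was tested over all 12 libraries. It did for 4 of the 47 genes, where 2.09% of 8916 genes passed (1.84% with a positive and 0.247% with a negative difference). The difference of log2 differences was 0.91 ± 0.15 (adjusted p = 0.0011) for Lsp1, 0.88 ± 0.11 (adjusted p = 5.0e-05) for Cnn2, 0.69 ± 0.11 (adjusted p = 6.6e-04) for Tmsb10 and 0.67 ± 0.12 (adjusted p = 0.0021) for Coro1a. All 4 calls held with each library left out. For Myh9 it was 0.47 ± 0.14 (adjusted p = 0.082) and passed in the fit blocked by mouse (adjusted p = 0.041). The values for Lpxn (0.66 ± 0.19 (adjusted p = 0.075)), Ezr (0.48 ± 0.14 (adjusted p = 0.086)), Arpc1b (0.37 ± 0.14 (adjusted p = 0.22)) and Tmsb4x (0.26 ± 0.10 (adjusted p = 0.24)) did not pass, so that a stimulation-dependent effect was not shown for these. Calls appeared when 1 library was left out for Gsn (without stimulated isotype mouse 3, adjusted p = 0.012), Evl (without unstimulated isotype mouse 1, 0.047), Lpxn (without unstimulated anti-LAIR-1 mouse 2, 0.024), Ezr (without stimulated anti-LAIR-1 mouse 1, 0.037) and Myh9 (without unstimulated anti-LAIR-1 mouse 2, 0.025, or stimulated anti-LAIR-1 mouse 1, 0.04998).

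Other genes of the actin pathway were read from lists outside the 50. Of 57 other actin regulators tested, 10 were higher and 36 lower with anti-CD3 and isotype (71.4% of all genes passed). On the log2 scale Plek, pleckstrin, rose by 6.22 ± 0.40 (adjusted p = 1.5e-12) and Marcksl1, a filament-binding MARCKS relative, by 3.65 ± 0.14 (adjusted p = 2.1e-16), whereas the myosin Myo1f and profilin 2 (Pfn2) fell, with log2 fold changes of -4.07 ± 0.30 (adjusted p = 2.8e-11) and -3.55 ± 0.52 (adjusted p = 2.1e-06). In stimulated cells 11 of 56 were higher and 1 lower with anti-LAIR-1, where 5.80% of all genes passed. They were led by Myo1f (1.42 ± 0.39 (adjusted p = 0.042)), the linker plectin, Plec (1.06 ± 0.25 (adjusted p = 0.017)), adducin, Add1 (0.97 ± 0.11 (adjusted p = 3.5e-05)), and Mical1, which oxidises actin (0.93 ± 0.25 (adjusted p = 0.036)), and the gene lower was Plek. The call of Myo1f was lost without any 1 of the 6 libraries (adjusted p from 0.053 to 0.12), that of Plec without isotype mouse 2 (0.093) or mouse 3 (0.084) or anti-LAIR-1 mouse 3 (0.076), and that of Mical1 without mouse 1 (0.10) or mouse 2 (0.096) of the isotype or mouse 2 (0.10) or mouse 3 (0.13) of the anti-LAIR-1 libraries. Plek lost it without isotype mouse 1 (0.063) or mouse 3 (0.13) or anti-LAIR-1 mouse 2 (0.13) or mouse 3 (0.095), while that of Add1 held. In DESeq2 blocked by mouse, Plek (0.069), Myo1f (0.13), Mical1 (0.21) and Plec (0.42) did not pass. The interaction passed as positive for 5 of 58 (2.09% of all genes passed), with Plec at 1.09 ± 0.28 (adjusted p = 0.033), Add1 at 0.85 ± 0.15 (adjusted p = 0.0018), the ERM kinase Stk10 at 0.81 ± 0.13 (adjusted p = 6.7e-04) and the cofilin phosphatase Ssh2 at 0.62 ± 0.14 (adjusted p = 0.013). Add1 and Stk10 passed here with each library left out, Ssh2 did not without stimulated isotype mouse 2 (0.066) or mouse 3 (0.056) or stimulated anti-LAIR-1 mouse 2 (0.058), and Plec did not without any 1 of 7 libraries (0.052 to 0.14) and in DESeq2 (0.13, or 0.24 blocked by mouse).

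Of the genes for SRF and its coactivators, Srf rose with anti-CD3 and isotype (1.39 ± 0.15 (adjusted p = 2.9e-08)) and Mkl1 and Mkl2 fell (-2.79 ± 0.13 (adjusted p = 6.2e-15) and -0.73 ± 0.22 (adjusted p = 0.0055)). These were 3 of the 5 tested, or 60%, below the 71.4% of all genes that passed. Mkl1 was higher with anti-LAIR-1 in stimulated cells (0.56 ± 0.14 (adjusted p = 0.028)), the only call among 6 (16.7%, beside 5.80% of all genes). It was lost without any 1 of the isotype libraries (adjusted p from 0.065 to 0.086) and without anti-LAIR-1 mouse 1 (0.088) or mouse 2 (0.12), and in DESeq2 blocked by mouse (0.25), as was that of Mkl2 with anti-CD3 and isotype (0.063). None of these other lists, nor the microtubule and septin lists, held a call for anti-LAIR-1 in unstimulated cells.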

How the data were processed

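RNA of 12 wells, from 3 mice in 4 conditions, was sequenced with an adapted form of CEL-seq, which reads each molecule near its polyadenylated end. The deposited values are raw counts per gene symbol. Per the labels and the study's methods, the authors aligned read 2 to the mouse mm10 transcriptome with BWA MEM, discarded reads that fit several places equally well, and counted with MapAndGo. Whether molecular identifiers were collapsed and whether strand was used are not given in the sources used here. The limit that a count of 0 allows (3 counts, 0.404 to 1.61 CPM) covers counting error only, and the 95% intervals of log2 differences come from the edgeR fits and include the spread between mice.

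Groups were compared with edgeR 4.0.16 in R 4.3.3 (TMM, filterByExpr, quasi-likelihood test, Benjamini-Hochberg adjustment over all 8690 to 9223 genes tested, threshold 0.05). Each comparison of 2 groups used their 6 libraries and the interaction used all 12. Genes that are not protein coding in GENCODE M21 or RefSeq were left out after the test, as in the study (14272 of 14323 symbols matched, 13160 protein coding). The study's tool, DESeq2 (version 1.42.0 here), was an alternative. The other alternatives were upper quartile scaling or DESeq2 size factors in edgeR, normalization without the 50 genes, a minimum of 10 counts in every library, no filter on counts, the mouse number as a block (in edgeR and DESeq2), all 12 libraries in 1 fit, and each library left out. The edgeR and DESeq2 fits were tested on simulated data.

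The genes, roles, lists and markers were chosen with earlier results of these data known. Values in every library are printed for genes that passed in at least 1 comparison with an absolute log2 fold change of at least 0.5 (31 with Actb, Actg1, Tmsb4x, Pfn1 and Cfl1, which were always to be printed). For other lists, counts and up to 4 called genes with the highest absolute change are given. A further list of genes is not reported here.

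Libraries with the same mouse number come from the same mouse by the labels and methods. Across genes, the deviations of libraries from their group means had a mean correlation of 0.0432 in the 18 pairs from the same mouse and of -0.0216 in the 36 pairs from different mice. No library was a copy of another.

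Shared windows are the 60-base stretches (the length of read 2) in the last 500 bases of a gene's GENCODE M21 transcripts (GRCm38, the build of mm10) that also occur in another gene. A stretch in the last 500 bases of several listed genes was not counted as shared among them. Gene coordinates are from the same annotation, and promoters are from RefSeq.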

Additional observations from a re-analysis of the deposited data

Results flagged for a closer look

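For 4 of the 47 genes tested, anti-LAIR-1 acted differently in stimulated and unstimulated cells. This came from a test of the difference itself, over all 12 libraries in edgeR, in which 2.09% of 8916 protein-coding genes passed. The difference of log2 differences was 0.69 ± 0.11 (adjusted p = 6.6e-04) for Tmsb10, 0.67 ± 0.12 (adjusted p = 0.0021) for Coro1a, 0.91 ± 0.15 (adjusted p = 0.0011) for Lsp1 and 0.88 ± 0.11 (adjusted p = 5.0e-05) for Cnn2. In stimulated cells each was higher with anti-LAIR-1 in 3 of 3 mice, by 0.61, 0.72, 0.83 and 0.81. In unstimulated cells the differences were -0.07, 0.06, -0.08 and -0.06. Beside these, the summed naïve T cell markers also differed in stimulated cells, at 417 to 512 CPM with isotype and 645 to 807 CPM with anti-LAIR-1, and were between 4663 and 5187 CPM in unstimulated cells. Of these 6 markers, 5 passed as higher with anti-LAIR-1 in stimulated cells and Ccr7 did not. Ccr7 stood at 171, 147 and 215 CPM with anti-CD3 and isotype and at 143, 148 and 175 CPM with anti-CD3 and anti-LAIR-1. The part of the naïve markers in the result was not tested.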

How the results depend on the processing

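Of the 50 genes, the number called under the alternatives stayed within 1.5 times the reported one, except for the interaction in DESeq2, which called 7 where edgeR called 4 (Myh9, Ezr and Lpxn in addition). Over all genes, DESeq2 with the replicate block called 234 for anti-LAIR-1 in stimulated cells, where edgeR without a block called 495, and leaving out the filter on low counts gave 3 calls in unstimulated cells in place of 0. With each library left out, the listed genes called were 38 to 39 of 40 (anti-CD3, isotype), 38 to 39 of 39 (anti-CD3, anti-LAIR-1), 6 to 8 of 9 (anti-LAIR-1, stimulated), 0 to 0 (unstimulated) and 4 to 6 of 4 (interaction). Over all genes these counts were 5754 to 5972, 6024 to 6243, 286 to 418, 0 to 1 and 100 to 179. The lowest for anti-LAIR-1 in stimulated cells came without isotype mouse 2 (286), anti-LAIR-1 mouse 2 (307) and anti-LAIR-1 mouse 3 (327), and for the interaction without stimulated anti-LAIR-1 mouse 3 (100), stimulated isotype mouse 2 (108) and mouse 1 (123), unstimulated isotype mouse 2 (115), and unstimulated anti-LAIR-1 mouse 3 (116) and mouse 1 (122), and the call in unstimulated cells came without anti-LAIR-1 mouse 2. The replicate block in edgeR, which pairs the libraries of a mouse, changed 2 calls of listed genes, Gsn (log2 1.01, adjusted p = 0.029) and Myh9 (0.48, 0.041), and no other. With the block in DESeq2, the fit ended the calls of Dstn (adjusted p = 0.14), Zyx (0.082) and Pxn (0.058) for anti-CD3 with isotype, Arpc2 (0.060) and Capza1 (0.084) for anti-CD3 with anti-LAIR-1, and Myh9 (0.064) and Tmsb4x (0.080) for anti-LAIR-1 in stimulated cells, and it called Myh9 (0.020) and Ezr (0.036) in the interaction. Upper quartile scaling lowered the median of all genes by 0.18 (isotype) and 0.21 (anti-LAIR-1) in the anti-CD3 comparisons, and small rises lost their calls with it while small falls gained them. The cause of these differences was not tested. Single values of the 50 genes and of leading genes of the other lists were on the same side of the threshold in 5870 recomputations, past it in 50 more and no longer past it in 129, and 1 changed sign and lost its call, Arpc2 with anti-CD3 and anti-LAIR-1 under upper quartile scaling (-0.050). At these depths, Swap70 and Vcl could not be tested.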

Other observations

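Microtubule genes and septins, the other filament systems of the cell, were also read. Of 26 tubulins and microtubule regulators tested with anti-CD3 and isotype, 9 were higher and 11 lower, or 76.9%, near the 71.4% of all genes that passed. Among the lower were the tubulins Tubb3 (-3.76 ± 0.39 (adjusted p = 8.3e-09)), Tuba1a (-3.28 ± 0.13 (adjusted p = 6.0e-16)) and Tubb2b (-2.42 ± 0.37 (adjusted p = 3.3e-06)) and the microtubule-destabilising Stmn1 (-2.29 ± 0.19 (adjusted p = 2.5e-10)), while Tuba1b and Tubb4b were among the higher. Without stimulated isotype mouse 3 the log2 fold change of Tubb3 was -4.82. In stimulated cells Tuba1a (1.002 ± 0.16 (adjusted p = 9.6e-04)) and Tubb5 (0.33 ± 0.067 (adjusted p = 0.0069)) were higher with anti-LAIR-1. They were the only calls among 27 genes (7.41%, near the 5.80% of all genes). Both passed in the interaction (0.87 ± 0.18 (adjusted p = 0.0088) and 0.45 ± 0.10 (adjusted p = 0.016)), the only calls among 29 genes (6.90%, beside 2.09% of all genes). That of Tubb5 in the interaction was lost without unstimulated isotype mouse 2 (0.066), unstimulated anti-LAIR-1 mouse 1 (0.055), stimulated isotype mouse 3 (0.054) or stimulated anti-LAIR-1 mouse 3 (0.062). All 6 septins tested passed with anti-CD3 and isotype, where 71.4% of all genes did, 3 higher and 3 lower, with Sept11 at 2.82 ± 0.16 (adjusted p = 2.3e-13), Sept7 at 0.80 ± 0.086 (adjusted p = 1.5e-08), Sept2 at 0.79 ± 0.10 (adjusted p = 3.3e-07) and Sept1 at -0.996 ± 0.17 (adjusted p = 1.4e-05). With anti-LAIR-1 in stimulated cells Sept11 was lower (-0.42 ± 0.11 (adjusted p = 0.027)) and Sept6 higher (0.40 ± 0.072 (adjusted p = 0.0026)), of 7 tested, where 5.80% of all genes passed. The call of Sept11 was lost without isotype mouse 1 (0.092) or mouse 2 (0.12) or anti-LAIR-1 mouse 1 (0.051) or mouse 3 (0.10).

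The listed genes summed to 29162 to 29348 CPM in unstimulated isotype, 28020.1 to 28951 CPM in unstimulated anti-LAIR-1, 29575 to 31164 CPM in anti-CD3 isotype and 32720.4 to 34664 CPM in anti-CD3 anti-LAIR-1 libraries. The coefficient of variation between mice had a median of 8.05%, 6.76%, 6.04% and 5.36% over the 46 listed genes with at least 10 counts in every library, in that order of conditions, beside 13.6%, 10.8%, 10.2% and 9.02% over all genes with such counts. The genes compared were not matched for level, so a lower variation particular to the listed genes was not shown.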
